A study of Mus musculus with 12 samples.

Results

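The genes described here encode SR proteins, heterogeneous nuclear ribonucleoproteins (hnRNPs) and proteins of the spliceosomal small nuclear ribonucleoproteins (snRNPs). They are the 49 gene symbols that begin with Srsf, Hnrnp, Snrp, Sf3a or Sf3b in both deposited count tables, out of 23420 symbols in each table. They comprise 11 SR protein genes, 18 hnRNP genes, 8 genes of Sm proteins, 4 genes of proteins specific to the U1 or U2 snRNP, 3 SF3A subunit genes and 5 SF3B subunit genes. All 49 matched the RefSeq gene table of mouse (GRCm38.p6, also called mm10), and they lie on 18 chromosomes. The cells were R1 mouse embryonic stem cells kept on gelatin in medium with serum and LIF and transfected for 48 h. The knockdown group received siRNAs against Krr1, whose protein is needed to build the small subunit of the ribosome, and its 3 lysates, called siKrr1 A, siKrr1 C and siKrr1 D, stand for 3 different siRNAs per the labels. The control group has the 3 lysates siGFP, siNC and Lipo, described in the labels as control siRNAs although the name Lipo states none. Each lysate was split between RNA-seq and ribosome profiling, which counts mRNA fragments protected by ribosomes (footprints, RPF), so that each group has 3 libraries per assay.

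Nuclear pre-mRNA splicing is carried out by the spliceosome, which assembles on each intron from snRNPs and many further proteins. SR proteins carry RNA-recognition motifs and a tail rich in arginine and serine, bind mostly to exons and help the spliceosome choose splice sites. hnRNPs coat nascent transcripts, and several of them oppose SR proteins at splice sites. Sm proteins form the ring around the small nuclear RNA in the core of most snRNPs, the U1 snRNP recognises the 5′ splice site, and SF3A and SF3B are the parts of the U2 snRNP that bind at the branch point. Many SR protein and hnRNP genes are known to limit their own expression through alternatively spliced transcripts that are destroyed by nonsense-mediated decay. Gene-level counts hold no isoforms, so that form of control was not measured here.

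Reads counted on genes numbered 31318772 to 39670139 per RNA library and 21615934 to 28911254 per footprint library. The lysates of a group differ in the siRNA or control they received, and the labels do not state whether the experiments were independent. The p-values measure only the spread between these lysates, which includes differences between those treatments. Relative to the mean of the controls, the 3 siKrr1 lysates kept 21.7%, 37.3% and 41.5% of Krr1 RNA and 18.9%, 37.5% and 31.4% of Krr1 footprints. The summed RNA level of 10 embryonic stem cell marker genes was 6629 to 7942 CPM (counts scaled to the size of the library) in siKrr1 libraries and 8348 to 8420 CPM in controls, while 8 fibroblast markers summed to 6.20 to 9.31 CPM in siKrr1 libraries and 8.12 to 9.10 CPM in controls. The sums were 4.07 to 4.78 CPM in siKrr1 libraries and 4.41 to 5.22 CPM in controls for 6 primitive endoderm markers, and 8.29 to 9.08 CPM in siKrr1 libraries and 7.58 to 7.95 CPM in controls for 5 neural markers. The part of the lower stem cell marker sum in the values below was not tested. CPM use TMM-scaled library sizes, so that each value is a share of its library, and in bulk samples less RNA per cell and fewer cells of a type cannot be told apart.

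Splicing protein mRNAs took a nearly constant share of each library. They held 1.16%, 1.19% and 1.18% of the counts on genes in the RNA of siKrr1 A, C and D, against 1.16%, 1.21% and 1.21% in siGFP, siNC and Lipo. In footprints the share was 1.90%, 1.92% and 1.85% in siKrr1 A, C and D, against 1.81%, 1.87% and 1.86% in siGFP, siNC and Lipo. The siKrr1 and control libraries overlapped in both assays.

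The RNA comparison asked which of these mRNAs changed in level after Krr1 knockdown, and none was called. Of 49 tested, 0 were higher and 0 lower at an adjusted p under 0.05 (edgeR quasi-likelihood test with Benjamini-Hochberg adjustment over all genes), against 4.8% of all 14038 genes tested. DESeq2 called 0 of them as well, against 666 higher and 536 lower over all genes, and gave 1 member no adjusted p. At an unadjusted edgeR p under 0.05 there were 4 members (8.16%), all lower in siKrr1 cells, against 20.9% of all genes. The siKrr1 and control libraries did not overlap for 6 of the 49 members (12.2%), against 27% of all genes. The median log2 fold change was -0.04 over the members and -0.0012 over all genes tested, with 15 members above 0 and 34 below, and without siNC the members' median was -0.02. For 43 of 49 the 95% interval of the log2 fold change lay within 0.5 of 0, that is within 1.41-fold either way, and for Hnrnpa1, Hnrnpa3, Hnrnpf, Snrpg, Snrpn and Srsf12 it reached past that bound. The members' standard errors had a median of 0.09 on the log2 scale, against 0.12 over all genes, of which 56.8% had such an interval.

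Footprints of Sf3a2, the middle-sized subunit of SF3A, rose, and no other member passed the test. Of 48 members tested in footprints, 1 was higher and 0 were lower (edgeR adjusted p under 0.05), against 6.07% of 13287 genes. At an unadjusted edgeR p under 0.05 there were 10 members, 5 higher and 5 lower (20.8%, against 22.5% of all genes), and the groups did not overlap for 11 (22.9%, against 27.9%). The median log2 fold change was -0.02 over the members and 0.0067 over all genes, and without siNC the members' median turned to 0.0070. For 41 of 48 the 95% interval lay within 0.5 of 0. The 1 member left out by the filter on low counts was Snrpn. DESeq2 called Sf3a2 (adjusted p = 1.27e-05) and also Snrpa1, at a log2 fold change of -0.21 (adjusted p = 0.0354), and gave 1 member no adjusted p. Over all 13287 genes DESeq2 called 632 higher and 525 lower in footprints. The plot of fold changes by gene shows the members of each role side by side.

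**Figure D1:**
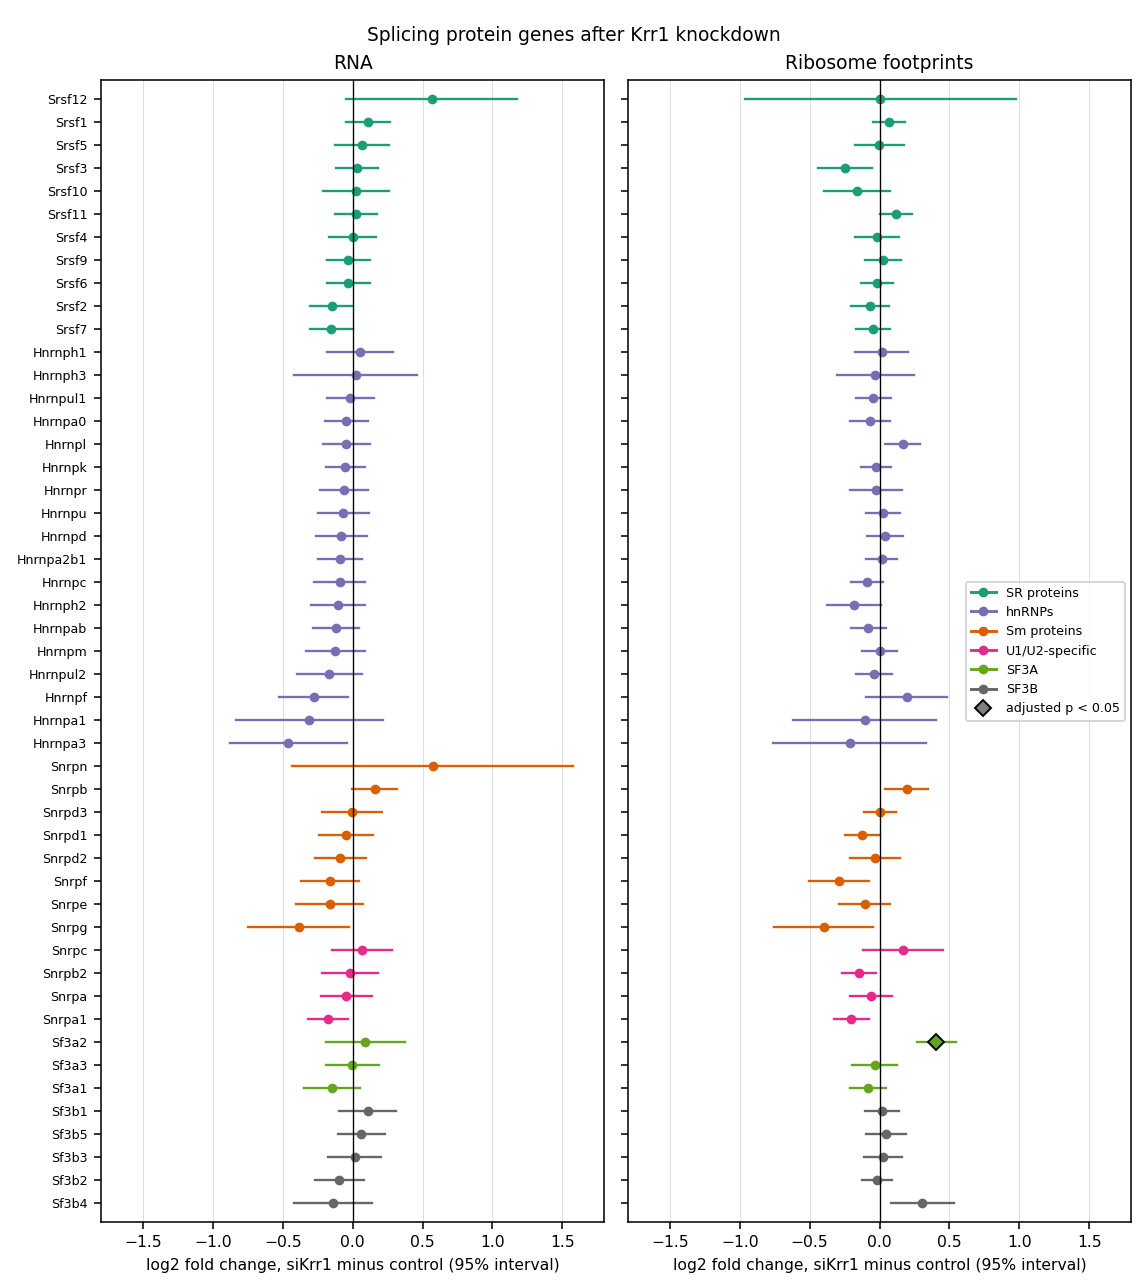
Log2 fold change of each of the 49 genes, siKrr1 minus control (x axis), with its 95% interval from the edgeR fit (horizontal line), in RNA (left) and in ribosome footprints (right), coloured by role. The only diamond, which marks an adjusted p under 0.05, is Sf3a2 in footprints at 0.41, and the widest intervals belong to Srsf12, Snrpn, Hnrnpa1 and Hnrnpa3, which have few counts.

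Sf3a2 (chromosome 10, 80798735 to 80804922, mm10) had 171, 175 and 168 footprint CPM in siKrr1 A, C and D, against 139, 129 and 119 CPM in siGFP, siNC and Lipo. All 3 siKrr1 libraries lay above all 3 controls, and they varied less among themselves than the controls did (SD 3.74 CPM, against 9.64 CPM). The fold change was 1.33, or 0.41 ± 0.06 on the log2 scale (SE; edgeR adjusted p = 0.00627). Sf3a2 RNA was at 14.3, 15.3 and 11.6 CPM in siKrr1 A, C and D and at 12.8, 13.7 and 12.1 CPM in siGFP, siNC and Lipo. The RNA groups overlapped, siKrr1 D being the lowest library and siKrr1 C the highest, with a log2 fold change of 0.09 ± 0.13 (SE; edgeR adjusted p = 0.741). The footprint call held with each of 5 libraries left out in turn, and without Lipo the log2 fold change was 0.35 at an edgeR adjusted p of 0.0523. Without Lipo 67 genes were called higher and 64 lower in footprints over all genes, against 450 and 356 with all libraries.

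Neither of the other SF3A subunits was called, and whether they differ from Sf3a2 was not tested. Sf3a1, the largest SF3A subunit, had 287, 278 and 253 footprint CPM in siKrr1 A, C and D, against 289.6, 289 and 289 CPM in siGFP, siNC and Lipo. Its siKrr1 libraries all lay below the controls, siKrr1 D farthest, at a log2 fold change of -0.08 ± 0.06 (SE; edgeR adjusted p = 0.438). Sf3a3 had 357, 330 and 288 footprint CPM in siKrr1 A, C and D, against 330, 332 and 338 CPM in the controls, with siKrr1 libraries on both sides of them. In RNA, Sf3a1 was at -0.15 (95% interval -0.35 to 0.05) and Sf3a3 had equal group means of 266 CPM.

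SF3B recognises the branch-point region together with SF3A, and Sf3b1 is its scaffold subunit and a frequent target of mutation in human blood disorders. Sf3b4 footprints were at 38.8, 36.1 and 44.8 CPM in siKrr1 A, C and D, against 35.3, 33.1 and 28.7 CPM in siGFP, siNC and Lipo. The groups did not overlap, siKrr1 C and siGFP being less than 1 CPM apart, and the log2 fold change of 0.30 ± 0.10 (SE) was not called (edgeR adjusted p = 0.105). Sf3b4 RNA overlapped between groups, at 10.6, 9.43 and 10.6 CPM in siKrr1 A, C and D and 12.6, 10.02 and 11.1 CPM in siGFP, siNC and Lipo. Sf3b1 RNA was at 361, 352 and 447 CPM in siKrr1 A, C and D and at 367, 366 and 345 CPM in siGFP, siNC and Lipo, so that siKrr1 D alone stood high, while its footprints differed by 0.02 on the log2 scale (95% interval -0.10 to 0.14). Sf3b2, Sf3b3 and Sf3b5 had log2 fold changes between -0.09 and 0.06 in RNA and between -0.02 and 0.05 in footprints, none called. Of the SF3B subunits outside the symbol rule, named to complete the complex, Phf5a was at -0.26 in footprints (edgeR adjusted p = 0.105) and 0610009D07Rik, the older symbol of Sf3b6, at 0.04. All siKrr1 footprint libraries of Phf5a lay below the controls, and without siKrr1 C it was called at -0.37 (edgeR adjusted p = 0.00927). Phf5a was called with no other library left out. Without siKrr1 C the footprint calls over all genes also rose, from 450 to 791 higher and from 356 to 546 lower.

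Of the Sm ring genes tested in footprints, 2 of 7 had a log2 fold change above 0 and 5 below, and none was called. Over all genes 6845 of 13287 were above 0 in footprints, and 6.07% were called. Snrpb, which encodes the Sm protein B, had 479, 446 and 394 footprint CPM in siKrr1 A, C and D, against 374, 393 and 384 CPM in siGFP, siNC and Lipo. All siKrr1 libraries lay above the controls, siKrr1 D by less than 1 CPM, at a log2 fold change of 0.20 ± 0.07 (SE; edgeR adjusted p = 0.122). Without siKrr1 D the log2 fold change was 0.27 and was called (edgeR adjusted p = 0.0315), and without siKrr1 A it was 0.13 (edgeR adjusted p = 0.277). Snrpb RNA was at 399, 375 and 343 CPM in siKrr1 A, C and D, against 329.6, 340.0 and 330.3 CPM in the controls, again without overlap and not called (log2 fold change 0.16 ± 0.07 SE, edgeR adjusted p = 0.243).

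Snrpg and Snrpf, which with Snrpe are the small subunits of the ring, were lower in footprints without passing the test. Snrpg footprints were at 8.49, 8.76 and 5.79 CPM in siKrr1 A, C and D, against 10.5, 9.72 and 9.996 CPM in siGFP, siNC and Lipo (log2 fold change -0.40 ± 0.16 SE, edgeR adjusted p = 0.170). siKrr1 D stood lowest, as it did in Snrpg RNA with 34.0 CPM, against 56.8 and 51.6 CPM in siKrr1 A and C and 71.9, 54.9 and 59.1 CPM in the controls. Without siKrr1 D the log2 fold change of Snrpg was -0.22 in footprints and -0.19 in RNA, and without siGFP it was -0.26 in RNA. Snrpf had 36.3, 35.4 and 29.6 footprint CPM in siKrr1 A, C and D, against 45.6, 39.7 and 38.5 CPM in the controls (log2 fold change -0.29 ± 0.10 SE, edgeR adjusted p = 0.108). Both genes had all siKrr1 footprint libraries below all controls. Snrpd1 footprints were below the controls as well, by less (-0.12, edgeR adjusted p = 0.224), while Snrpd3 differed by less than 0.01 on the log2 scale in both assays and Snrpd2 and Snrpe overlapped between groups. Snrpn, a paralog of Snrpb used mainly in the brain, had 75 RNA and 29 footprint reads in all, too few to describe a difference.

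Among the proteins specific to single snRNPs, Snrpa1, a U2 protein that binds the U2 RNA together with Snrpb2, was lower in both assays without an edgeR call. Snrpa1 RNA was at 247, 259 and 260.0 CPM in siKrr1 A, C and D, against 279, 294 and 291 CPM in siGFP, siNC and Lipo. Its footprints were at 232, 249.6 and 251 CPM in siKrr1 A, C and D, against 294, 274 and 274 CPM in the controls. The groups were separate in both, and the log2 fold changes were close, -0.17 ± 0.07 in RNA and -0.20 ± 0.06 in footprints (SE; edgeR adjusted p = 0.155 and 0.0623). Snrpb2 was below the controls in footprints, with 170.2, 186 and 177 CPM in siKrr1 A, C and D, against 195, 196 and 202 CPM in siGFP, siNC and Lipo (-0.15, edgeR adjusted p = 0.138), whereas its RNA overlapped (-0.02). The U1 proteins Snrpa and Snrpc overlapped between groups in both assays, at log2 fold changes between -0.06 and 0.17. Snrpc footprints were at 28.6 CPM in siKrr1 A but 43.4 and 40.1 CPM in siKrr1 C and D, against 31.7 to 35.3 CPM in controls. Without siKrr1 A its log2 fold change was 0.32 and was called (edgeR adjusted p = 0.0475), and it was called with no other library left out.

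**Figure D2:**
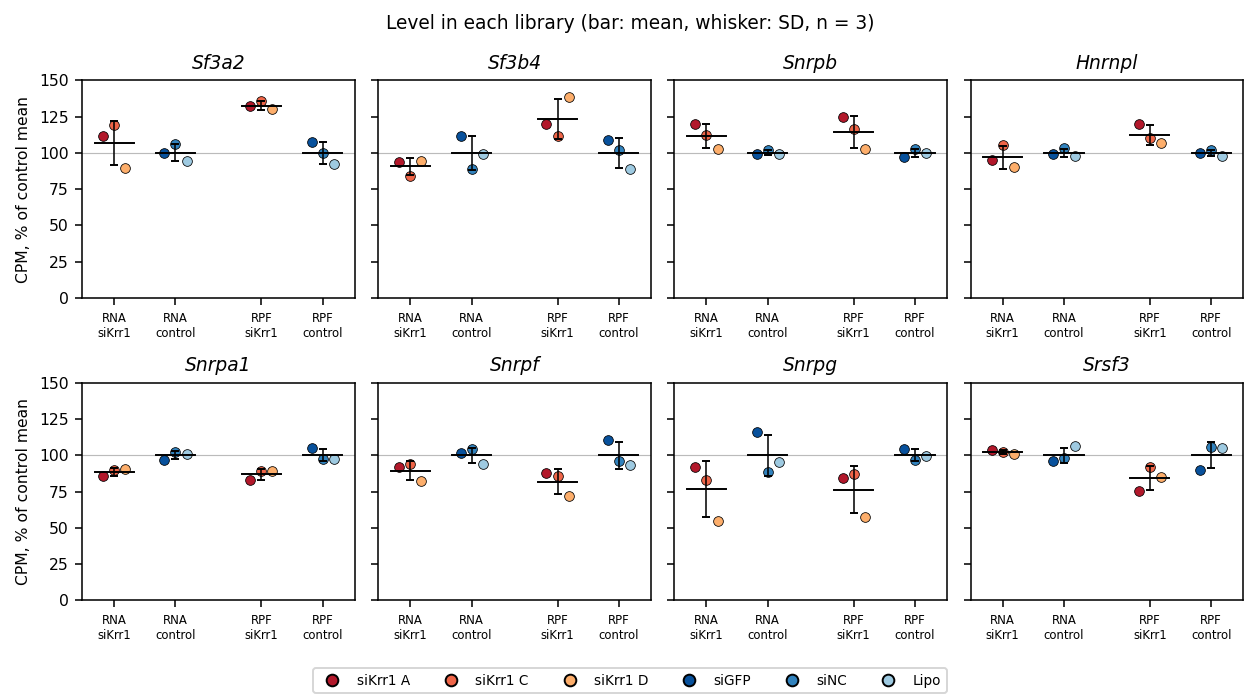
Level of 8 genes in every library, as a percentage of the mean of the 3 control libraries of the same assay (y axis), in RNA and footprints (RPF), with siKrr1 libraries in red tones left of controls in blue tones. Black bars are means and whiskers SD (n = 3); the siKrr1 footprint points of Sf3a2 form a tight cluster above the controls, and the siKrr1 D points of Snrpg lie far below its other knockdown points.

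None of the 11 SR protein mRNAs was called in either assay, against 4.8% of all genes in RNA and 6.07% in footprints. Srsf1, the founding SR protein with roles in splicing, export and translation, had 959.8, 1015 and 1046 RNA CPM in siKrr1 A, C and D, against 889, 969 and 940.0 CPM in siGFP, siNC and Lipo, with overlap (log2 fold change 0.11, 95% interval -0.05 to 0.27). Srsf2, also known as SC35, had 558, 597 and 536 RNA CPM in siKrr1 A, C and D, against 635, 609.7 and 630.2 CPM in the controls. Srsf7 had 356, 322 and 347 RNA CPM in siKrr1 A, C and D, against 370.2, 372 and 396 CPM in the controls. Both genes had all siKrr1 RNA libraries below the controls, at log2 fold changes of -0.15 each and edgeR adjusted p of 0.253 for Srsf2 and 0.242 for Srsf7, and both overlapped in footprints.

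Srsf3, the smallest SR protein, links splicing to polyadenylation and mRNA export. Its RNA was at 358, 352 and 347 CPM in siKrr1 A, C and D and at 332, 338 and 366 CPM in siGFP, siNC and Lipo, while its footprints were at 80.6, 98.7 and 91.1 CPM in siKrr1 A, C and D and at 95.8, 113 and 112 CPM in the controls. The footprint groups overlapped through siGFP alone, which lay below siKrr1 C, and the log2 fold change was -0.25 ± 0.09 (SE; edgeR adjusted p = 0.121), against 0.03 ± 0.07 in RNA. Srsf11 was at 239, 238 and 253 footprint CPM in siKrr1 A, C and D, against 224, 227 and 221 CPM in the controls, apart from them by a log2 fold change of 0.12 (edgeR adjusted p = 0.204). Srsf12, a rare member, had 185 RNA reads in all, at 0.965 to 1.08 CPM in siKrr1 libraries and 0.656 to 0.705 CPM in controls (log2 fold change 0.57, edgeR adjusted p = 0.275). Srsf4, Srsf5, Srsf6, Srsf9 and Srsf10 lay between -0.03 and 0.06 in RNA and between -0.16 and 0.03 in footprints, all with overlapping groups.

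Of 18 hnRNP genes, 2 had a log2 fold change above 0 in RNA (median -0.09) and 7 in footprints (median -0.03), and none was called in either assay. Over all genes 6989 of 14038 were above 0 in RNA and 6845 of 13287 in footprints, with 4.8% and 6.07% called. Hnrnpf, an hnRNP that binds G-rich RNA, had 109, 94.7 and 77.7 RNA CPM in siKrr1 A, C and D, against 123, 113 and 105 CPM in siGFP, siNC and Lipo. Its footprints were at 35.1, 39.3 and 41.6 CPM in siKrr1 A, C and D, against 26.8, 40.9 and 33.6 CPM in the controls. Of all lysates siKrr1 D had the least RNA and the most footprints, and the groups overlapped in both (log2 fold change -0.28 ± 0.11 in RNA and 0.19 ± 0.13 in footprints, SE; edgeR adjusted p = 0.184 and 0.430). Without siKrr1 D the RNA log2 fold change was -0.15.

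Hnrnpl, a regulator of exon choice that binds CA repeats, had 1357, 1246 and 1206 footprint CPM in siKrr1 A, C and D, against 1134, 1157 and 1105 CPM in siGFP, siNC and Lipo. All siKrr1 libraries lay above the controls (log2 fold change 0.17 ± 0.06 SE, edgeR adjusted p = 0.11). Its RNA overlapped, at 615, 683 and 582 CPM in siKrr1 A, C and D and 640.2, 667 and 632 CPM in the controls. For Hnrnpu, Hnrnpab and Hnrnpa2b1, which have many footprint reads, the footprint log2 fold changes were 0.03, -0.08 and 0.02, with 95% intervals that lay between -0.21 and 0.15.

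Hnrnpa1, one of the most abundant hnRNPs in most cells, was listed at 3.38, 4.50 and 2.16 RNA CPM in siKrr1 A, C and D and at 4.25, 4.28 and 3.92 CPM in siGFP, siNC and Lipo. Hnrnpa3 was listed at 3.21, 2.55 and 3.19 RNA CPM in siKrr1 A, C and D, all below the 4.80, 3.87 and 3.64 CPM of the controls (log2 fold change -0.46 ± 0.19 SE, edgeR adjusted p = 0.193). The deposited counts hold uniquely aligned reads only, and reads shared with near-identical copies of a gene are then not counted. The RefSeq table lists Hnrnpa1l2-ps, Srsf3-ps, Snrp1c-ps1, Snrp1c-ps2 and Snrpert as pseudogenes, so the levels of genes with such copies are uncertain. How many reads were lost was not tested. Hnrnph1 and Hnrnph2 are close paralogs, as are Snrpb and Snrpn, and share this uncertainty.

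Translational efficiency, the footprint change beyond the RNA change, was tested as the interaction of assay and condition over the 12 libraries. No member was called (0 higher and 0 lower of 49), as 0% of 14236 genes were. DESeq2 called 0 members too, against 2 higher and 0 lower over all genes. At an unadjusted edgeR p under 0.05 there were 5 members, 4 higher and 1 lower, which is 10.2% of them against 2.41% of all genes in this fit, and with the lysate as a block 10.2% against 6.78%. These were Sf3b4 at 0.44 ± 0.16, Hnrnpf at 0.46 ± 0.19, Sf3a2 at 0.31 ± 0.13, Hnrnpl at 0.20 ± 0.09 and Srsf3 at -0.29 ± 0.11 (log2, SE). The value of Hnrnpf was 0.26 without siGFP and 0.29 without siKrr1 D. The fit with the block follows the split of each lysate between the assays, and in it 8 genes were higher and 1 lower (0.0632% of 14236), none of them a member. The blocked edgeR adjusted p was 0.341 for Sf3b4, 0.416 for Srsf3, 0.474 for Sf3a2, 0.558 for Hnrnpf and 0.577 for Hnrnpl. In that fit 42 of 49 members had a 95% interval within 0.5 of 0, and the median over the members was 0.0081.

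The ratio of footprint CPM to RNA CPM differed more between these genes than between lysates, with an SD between genes of 1.24 on the log2 scale. Averaged on the log2 scale over the 3 control lysates, it spanned 69.9-fold over 48 members, whereas a member's ratio varied between control lysates by a median SD of 0.08 on the log2 scale. All genes showed this too, with an SD between genes of 1.08 and a median SD between control lysates of 0.12. The median log2 ratio was 0.22 over the members and -0.20 over 13100 genes with reads in all libraries. Of the 48, 11 were above the 90th percentile of all genes and 4 below the 10th percentile. RNA reads come from whole exons and footprints mainly from the translated part, so that the ratio depends also on the share of untranslated sequence, which was not measured. Reads shared with near-identical copies of a gene were not counted in either assay. Whether this loss differed between the longer RNA fragments and the shorter footprints, and so moved the ratio, was not tested. These ratios are a description with no test.

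The highest ratios were those of Hnrnpd, an AU-rich element binding protein also called AUF1, and Sf3a2. The log2 ratio of Hnrnpd was 3.61, 3.64 and 3.65 in siKrr1 A, C and D, against 3.58, 3.501 and 3.47 in siGFP, siNC and Lipo, a control mean of 11.4 footprint CPM per RNA CPM. That of Sf3a2 was 3.57, 3.52 and 3.86 in siKrr1 A, C and D, against 3.43, 3.24 and 3.30 in the controls, or 10.02 per RNA CPM. All siKrr1 lysates lay above the controls for both genes, as they did for Sf3b4, Hnrnpl and Srsf11. For Snrpb2 and Srsf3 they all lay below. How many of all genes were separated in this ratio was not counted. Snrpd3, Hnrnpa2b1, Hnrnph3, Hnrnpm, Hnrnpu, Sf3a1, Sf3b4, Hnrnpul2 and Hnrnpc followed, with control ratios of 5.65 down to 2.11, so that 7 of the 11 highest were hnRNPs.

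The lowest ratios were those of Snrpg and Snrpe. The log2 ratio of Snrpg was -2.74, -2.56 and -2.55 in siKrr1 A, C and D and -2.77, -2.50 and -2.56 in siGFP, siNC and Lipo, a control ratio of 0.164. That of Snrpe was -2.42, -2.09 and -2.04 in siKrr1 A, C and D and -2.25, -2.23 and -2.27 in the controls, a control ratio of 0.210. Hnrnpf at 0.293, Srsf3 at 0.309 and Snrpd2 at 0.369 came next. The ring partners Snrpd3 and Snrpg were 34.5-fold apart in this ratio. Srsf3 stood at -2.15, -1.84 and -1.93 in siKrr1 A, C and D, below all controls at -1.79, -1.58 and -1.704. The other SR proteins except Srsf10 and Srsf12 kept between 0.846 and 1.27 in controls.

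**Figure D3:**
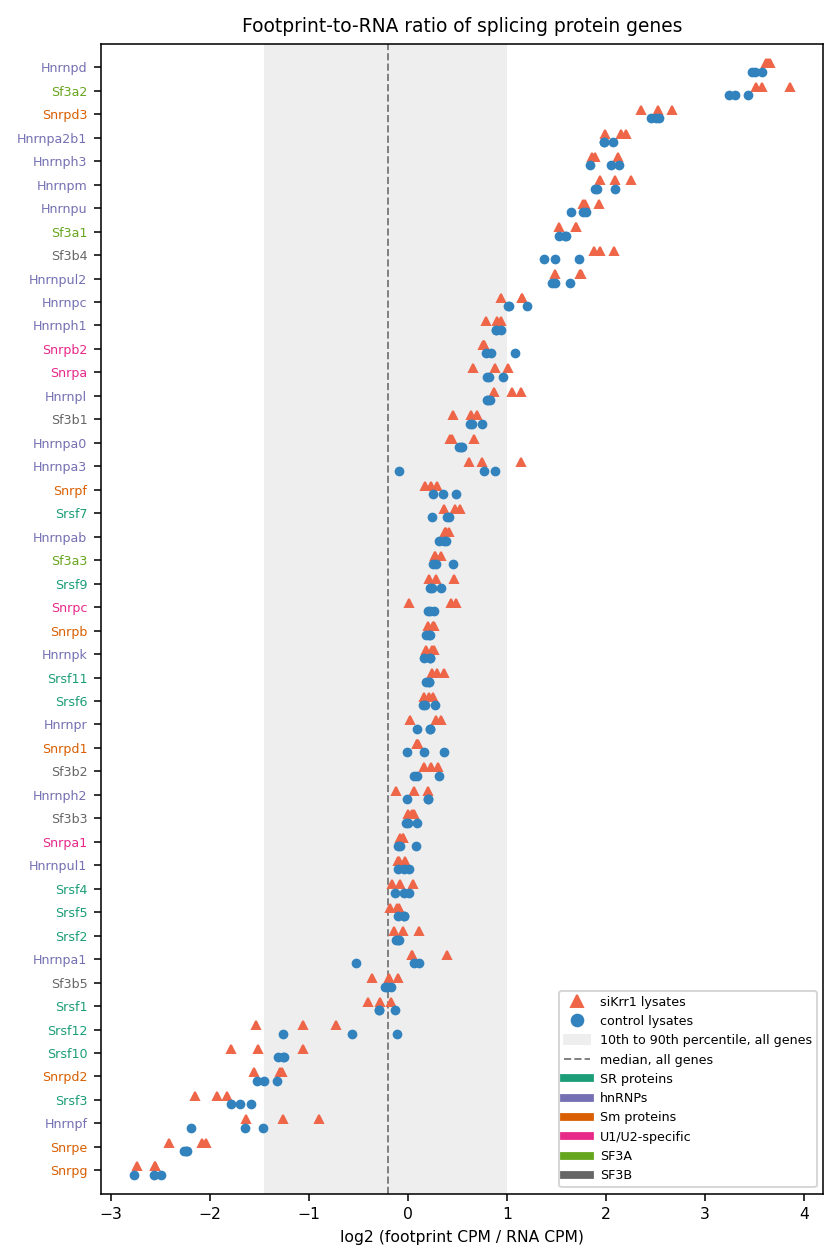
Log2 ratio of footprint CPM to RNA CPM (x axis) of 48 splicing protein genes, ordered by the control mean, in the 3 siKrr1 lysates (triangles) and the 3 control lysates (circles), with gene names coloured by role. The grey band runs from the 10th to the 90th percentile of 13100 genes (-1.44 to 0.99) and the dashed line is their median at -0.20; the triangles lie to the right of the circles for Sf3a2 and Sf3b4 and to the left for Srsf3.

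The knockdown lysates differed among themselves, and siKrr1 D stood lowest for more members than the others did. Of 48 members in footprints, siKrr1 D was the lowest of the 3 knockdown lysates for 29, siKrr1 A for 11 and siKrr1 C for 8, and in RNA these counts were 23, 17 and 9 of 49. siKrr1 A, C and D were the highest for 22, 17 and 9 members in footprints and for 18, 17 and 14 in RNA. Such counts were not made over all genes. The median deviation from the control mean over the Sm genes in RNA was 0.03, -0.05 and -0.24 in siKrr1 A, C and D on the log2 scale, against -0.03, 0.03 and -0.02 in siGFP, siNC and Lipo. In the footprints of siKrr1 A, C and D it was -0.08, -0.06 and -0.15. The U1- and U2-specific proteins had footprint medians of -0.22, -0.11 and -0.12 in siKrr1 A, C and D, against 0.01, -0.02 and 0.01 in the controls. The SR proteins had footprint medians of 0.06, -0.03 and -0.08 in siKrr1 A, C and D. All genes tested had medians between -0.0040 and 0.01 in every library. In RNA, 5 members lay more than 0.5 from the control mean in siKrr1 D and 1 each in siKrr1 A and siKrr1 C, against 1 in Lipo and 0 in siGFP and siNC. In footprints 1 did in siKrr1 D and 0 in siKrr1 A and siKrr1 C, against 1 each in siGFP and siNC and 0 in Lipo.

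**Figure D4:**
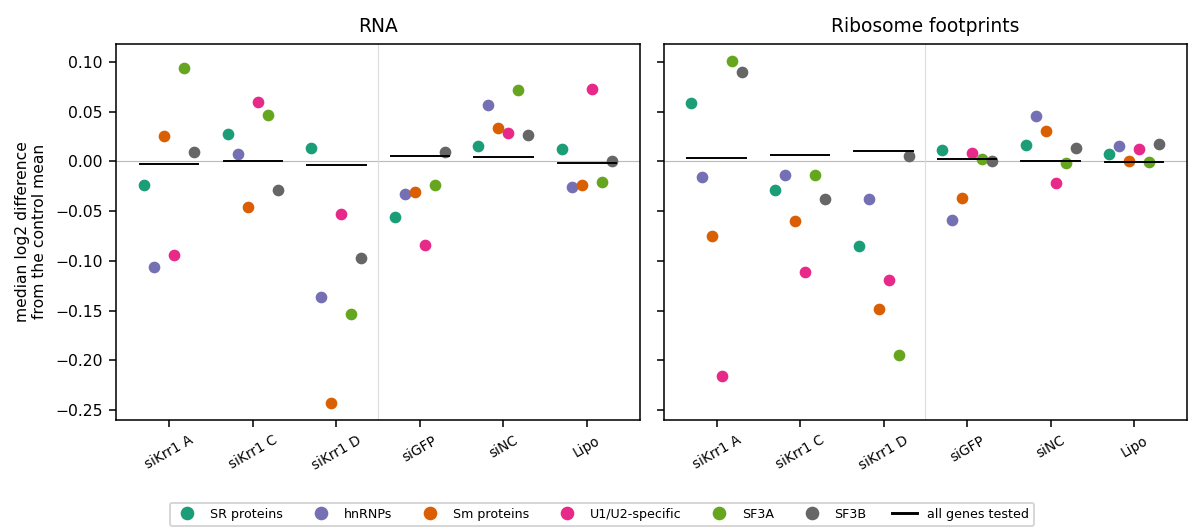
Median log2 difference from the control mean (y axis) over the members of each role group (coloured points) in each lysate (x axis), in RNA (left) and footprints (right), with black bars for all genes tested. In siKrr1 D the RNA point of the Sm proteins is at -0.24, while all control points lie within 0.1 of 0.

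Other genes of the splicing pathway were taken as 5 lists, and their calls stand beside 4.8% of all genes called in RNA by edgeR. In RNA, 1 of 34 splice-site and regulatory RNA-binding proteins rose, namely Esrp1, an epithelial splicing regulator, by 0.78 ± 0.16, and 1 of 25 catalytic-stage proteins rose, the helicase gene Dhx16, by 0.52 ± 0.08 (log2, SE; edgeR adjusted p = 0.0209 and 0.00701). None of 43 snRNP-specific and Lsm proteins, 17 SR kinases and SR-related proteins or 15 Sm-ring assembly factors was called in RNA by edgeR. DESeq2 called Ppih (0.34), Lsm5 (-0.45) and Snrnp48 (-0.36) of the snRNP-specific list and Son (0.29) of the SR-related list in RNA (log2 fold change; adjusted p = 0.0255, 0.0338, 0.0433 and 0.0369). The members of these 3 lists with the most control RNA counts were called by neither tool, at RNA log2 fold changes of -0.13 for Txnl4a and -0.11 for Lsm3, of -0.07 for Tnpo3, the nuclear importer of SR proteins, and 0.06 for Srpk1, a kinase of SR proteins, and of 0.07 for Strap and -0.03 for Prmt5, which methylates Sm proteins. Dhx16 RNA was at 658, 567 and 562 CPM in siKrr1 A, C and D, against 416, 422 and 406 CPM in siGFP, siNC and Lipo. Esrp1 was rare, at 6.14, 6.38 and 5.41 CPM in siKrr1 A, C and D and 3.54, 3.51 and 3.38 CPM in the controls, and its edgeR adjusted p was 0.0818 without siGFP, 0.0899 without siNC and 0.103 without Lipo. The list medians in RNA lay between -0.09 and -0.03.

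In footprints Dhx16 (0.53 ± 0.07) and Esrp1 (0.88 ± 0.16) rose again, and so did Son, a nuclear speckle protein with an arginine- and serine-rich domain (0.50 ± 0.07), Prpf8, the scaffold of the spliceosome's catalytic centre (0.30 ± 0.07), and Rbm22, a protein near that centre (0.33 ± 0.08). Coil, the scaffold protein of Cajal bodies where snRNPs mature, fell by 0.35 on the log2 scale and Cdc5l, a core protein of the activated spliceosome, by 0.31. The edgeR adjusted p was 0.00335 for Dhx16, 0.0119 for Esrp1, 0.00255 for Son, 0.0308 for Prpf8, 0.0298 for Rbm22, 0.00958 for Coil and 0.0368 for Cdc5l. DESeq2 also called Ppil1 lower (-0.23) and Smn1 higher (0.21) in footprints (log2 fold change; adjusted p = 0.0312 and 0.0441). By edgeR that made 1 of 43 snRNP-specific proteins, 1 of 34 regulators, 3 of 25 catalytic-stage proteins, 1 of 17 SR-related proteins and 1 of 15 assembly factors, with list medians between -0.09 and 0.02. Over all genes edgeR called 6.07% in footprints. Coil footprints were at 92.8, 101 and 99.5 CPM in siKrr1 A, C and D, against 125, 119.8 and 129 CPM in the controls, while its RNA overlapped. The calls of Dhx16 and Son held with each library left out. The other footprint calls each ended without some libraries. Over all genes the footprint calls also became fewer with a control left out. From 450 higher and 356 lower they went to 130 and 116 without siGFP, 106 and 97 without siNC and 67 and 64 without Lipo. Esrp1 had an edgeR adjusted p of 0.0686 without siNC and 0.0775 without Lipo, and Coil 0.0502 without siGFP and 0.0759 without Lipo. Prpf8 had 0.0569 without siKrr1 A, 0.139 without siNC and 0.157 without Lipo as its edgeR adjusted p. For Rbm22 it was 0.0533 without siKrr1 C, 0.087 without siGFP, 0.105 without siNC and 0.157 without Lipo, and for Cdc5l 0.0645 to 0.147 without any library but siKrr1 C (edgeR adjusted p). In translational efficiency 0 genes of these 5 lists were called by edgeR, with the lysate as a block or without it. Of the genes named above, Coil had a log2 difference in translational efficiency of -0.29 ± 0.10 and Son one of 0.21 ± 0.11 without the block (SE). With the lysate as a block these were -0.29 ± 0.07 and 0.20 ± 0.08 (SE; edgeR adjusted p = 0.260 and 0.683). For the genes with the most control RNA counts in each list the difference without the block lay between -0.11 and 0.11. Strap was at -0.11, Raly at -0.11, Ptbp1 at -0.07, Ppil1 at -0.02, Dhx16 at -0.0026 and Lsm3 at 0.11.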

How the data were processed

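RNA-seq (fragments of 40 to 60 nt) and ribosome profiling (about 30 nt) were measured in 3 siKrr1 and 3 control lysates. Each deposited table lists, for every gene symbol, the count of reads with a unique alignment, not normalized. The submitters' processing notes name STAR, HTSeq and the build mm10; tool versions, annotation and strand setting were not given in the sources used here. Knockdown columns carry letters and titles numbers, so a knockdown column was tied to its group and assay, not to a title. Entries for reads on no gene (31.2% to 33.4% of alignments in RNA, 57.5% to 63.3% in footprints) or several genes were left out.

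filterByExpr chose the genes, and edgeR's quasi-likelihood test was run on their counts with TMM factors (edgeR 4.0.16, limma 3.58.1, R 4.3.3), with calls at a Benjamini-Hochberg adjusted p under 0.05. Intervals (95%) and SE come from the F statistic. Scripts were tested on simulated data. CPM per library use TMM-scaled library sizes; log2 deviations use a prior count of 2. Alternatives were DESeq2 1.42.0, its size factors in edgeR, no filter, each library left out, and the lysate as a block. The pairing comes from the labels, which say that each lysate was divided, and from shared column names; over 6117 genes the 2 libraries of a lysate deviated together from their group means (r of 0.266 to 0.713). Libraries of a group were no duplicates (chi-square per degree of freedom 3.88 to 27.2).

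The members and pathway lists were chosen with earlier results of these data known. Named genes are Krr1, any member and, of each list, the genes called in a comparison (at most 4) or the 2 with the highest control RNA CPM where none was; Phf5a, 0610009D07Rik and some list genes called by DESeq2 alone were added with their values seen, and others are not reported here. No transcript lengths or protein sequences were used here, so levels of different genes were not compared per length and the planned density per codon was not computed.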

Additional observations from a re-analysis of the deposited data

How the results depend on the processing

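Single genes followed under the alternatives were Krr1, members with an unadjusted edgeR p under 0.05 and list genes called by edgeR. Of 275 such runs, 249 kept the call or its absence, 20 lost a call, 6 gained one and 0 changed direction. That choice favours genes with a steady direction, and the direction of the other members was not followed. In RNA and in translational efficiency 0 members were called under DESeq2, its size factors in edgeR, no filter on low counts, each library or lysate left out and, for translational efficiency, the replicate block. In footprints DESeq2 called 1 member lower (Snrpa1). Without a filter 2 members were higher (Sf3a2, Sf3b4) and 3 lower (Snrpa1, Snrpf, Srsf3), with edgeR adjusted p of 0.0360, 0.0477, 0.0483 and 0.0446 for Snrpa1, Sf3b4, Snrpf and Srsf3. With a library left out 0 to 2 members were higher in footprints and 0 lower.

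Over all genes, 666 were higher and 536 lower in RNA with DESeq2, and 582 and 477 without a filter. With a library left out 63 to 759 were higher and 51 to 539 lower in RNA, and 67 to 791 higher and 64 to 546 lower in footprints, where 784 were higher and 616 lower without a filter. In translational efficiency 2 genes were higher with DESeq2 and 2 without a filter, 0 to 1 with a lysate left out, and 8 higher and 1 lower with the replicate block, which changed no call of a member. With a library left out the members' median lay between -0.07 and -0.02 in RNA and between -0.04 and 0.0070 in footprints, above 0 only without siNC. Snrpn and Srsf12 had 75 and 185 RNA reads in all, the fewest of the members, and their RNA intervals reached past a 1.41-fold difference.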
